A study of Mus musculus with 9 samples.

Results

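Mouse embryonic kidneys labelled DROSHA knockout were compared, miRNA by miRNA, with kidneys labelled as carrying a DROSHA-E1147K transgene. The comparison uses 6 of the study's 9 small RNA libraries: 3 labelled DROSHA knockout and 3 labelled DROSHA-E1147K transgene, all from whole kidney at embryonic day 16.5. Another 3 libraries, from wild-type kidneys of the same stage, served as the background level and entered the low-count filter, the scaling and the estimate of the spread, but not the contrast. The labels describe a pair of mouse lines and give no promoter, Cre driver, targeted cell type or strain, so which kidney cells lost DROSHA, or made the mutant protein beside the normal one, is not stated here. Nor do they say whether each library stands for its own animal, so every p-value measures the spread from library to library, and part of that spread may be technical. All 1607 names of known mouse miRNAs with a read were considered, and 955 had enough reads to be tested (920 with the 6 libraries alone). The small RNA reads hold no measure of Drosha mRNA, so the genotypes could not be checked against the targeted gene.

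In the nucleus, DROSHA and its partner DGCR8 form the Microprocessor, which cuts the hairpin precursor out of a primary miRNA transcript. DICER1 later trims the hairpin, and one of its arms, named 5p or 3p, is loaded into an Argonaute protein, where bases 2 to 8 of the miRNA (the seed) pair with target mRNAs. DROSHA carries a pair of RNase III domains, and the E1147K change replaces a metal-binding glutamate of the domain that cuts the 5p side. This change recurs in Wilms tumor, a childhood kidney cancer of embryonic cells. A knockout takes the enzyme away from the targeted cells, whereas a transgene adds the mutant protein beside the normal one. The comparison asks how whole kidneys of these lines differ, with the share of affected cells unknown. In whole kidney, fewer cells of a type and less RNA per cell cannot be told apart.

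The sequences below are those on which the comparison turns, from RefSeq on GRCm38.p6, written 5′ to 3′ with the seed in capitals. Of the 955 tested names, 798 matched a sequence in that table. First stands the miRNA that passed the adjusted test, then those with the smallest p-values that were higher in the knockout, those that were lower, and the names that share a seed or a whole mature sequence.
miR-3067-5p: aGUUCUCAggcccgcuguggugu
miR-205-5p: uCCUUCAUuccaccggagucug
miR-203-3p: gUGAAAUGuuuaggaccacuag
miR-203-5p: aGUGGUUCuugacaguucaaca
miR-467h: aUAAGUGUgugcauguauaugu
miR-135a-5p: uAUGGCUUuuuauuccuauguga
miR-802-5p: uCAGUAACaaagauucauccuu
miR-802-3p: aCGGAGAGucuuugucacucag
miR-24-3p: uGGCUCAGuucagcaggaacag
miR-346-5p: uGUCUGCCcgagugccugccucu
miR-99a-5p: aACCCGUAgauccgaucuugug
miR-99b-5p: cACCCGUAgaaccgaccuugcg
miR-100-5p: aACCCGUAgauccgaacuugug
miR-10a-5p: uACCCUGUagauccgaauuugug
miR-10b-5p: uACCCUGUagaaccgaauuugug
miR-199a-3p: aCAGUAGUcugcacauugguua
miR-199b-3p: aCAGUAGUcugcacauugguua
The seeds of the 3 miRNAs of the miR-99/100 group are one and the same, as are those of miR-10a-5p and miR-10b-5p, and miR-199a-3p and miR-199b-3p are identical over their full length. No other seed recurs within these lines, which leave out names without a matched sequence, miR-135b-5p among them.

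Depth was even across the groups. The 6 libraries held 24350500 to 30291859 reads of known miRNAs. Levels are given as CPM, the reads of a miRNA scaled to a common library size with TMM factors. They are relative levels, so a rise or fall shared by all miRNAs would be scaled away and was not measured. Replicates of a group differed by more than read sampling gives in every pair. The median SD of log2 CPM between libraries was 0.33 in the transgene group, 0.48 in the knockout group and 0.23 in the controls. Knockout libraries thus varied most, and knockout 3 stood apart in miRNAs of muscle, blood and an imprinted cluster. Transgene 2 stood apart in some of the same lists, and the values without either library are given beside the results they touch.

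Knockout and transgene kidneys differed in relative level at 1 miRNA of 955 by edgeR's quasi-likelihood test at an adjusted p under 0.05. This is a background of 0.105%. That miRNA, miR-3067-5p, was lower in the knockout. At an unadjusted p under 0.05, 33 miRNAs were higher (3.46% of those tested) and 34 were lower (3.56%), together 67, and none of the others had an adjusted p below 0.567. All 3 knockout libraries lay above all 3 transgene libraries for 42 miRNAs (4.4%) and below them for 57 (5.97%). Many miRNAs named below were picked by small p-values in this same contrast, so their lack of overlap is no separate support. DESeq2, run on the same counts, called 3 miRNAs, miR-3067-5p, miR-205-5p and miR-467h, and its unadjusted p was under 0.05 for 42 higher and 28 lower. The median log2 fold change of the 955 was 0.05, and 97 of them differed by more than 1 on the log2 scale in either direction, of which 36 had a mean of at least 10 CPM. For a miRNA of that level the 95% interval of the fold change reached 0.75 to either side on the log2 scale in the median, so most differences smaller than that could not be told from 0.

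**Figure D1:**
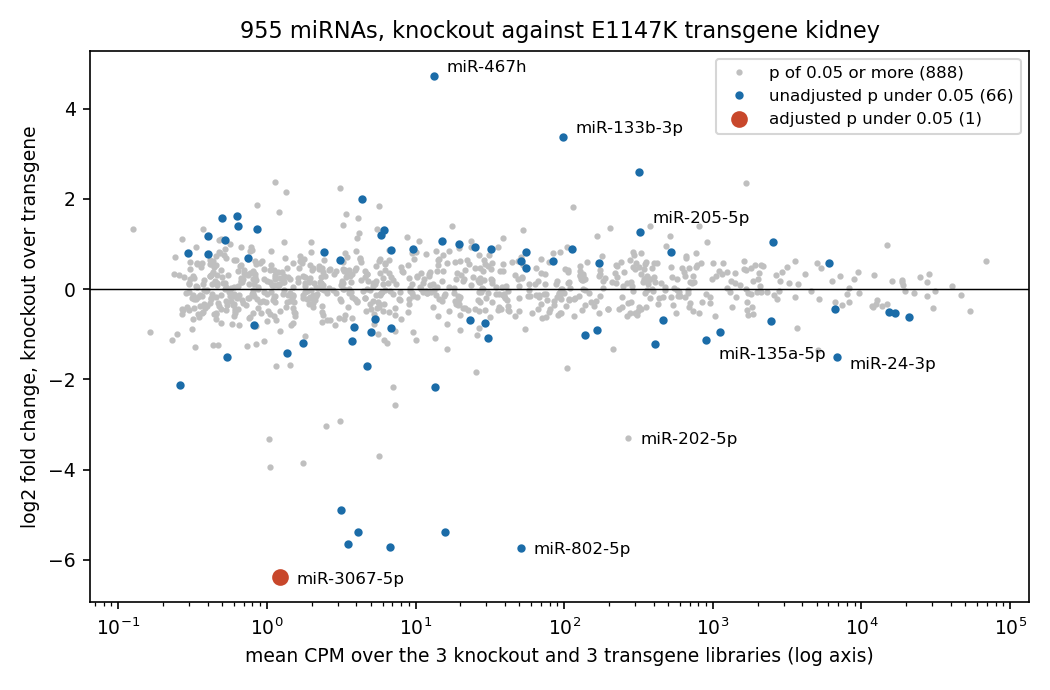
Each point is 1 of 955 miRNAs, placed by its mean CPM over the 3 knockout and 3 transgene libraries (horizontal log axis) and its log2 fold change, knockout over transgene (vertical axis). Blue points have an unadjusted p under 0.05, and the single red point, miR-3067-5p at -6.39, has an adjusted p under 0.05; most points lie within 1 of the zero line, and the far negative points include miR-802-5p and miR-202-5p, each far higher in 1 transgene library than in the rest.

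miR-3067-5p is cut from a hairpin within an intron of Smoc1, on the same strand, at chr12:81166151-81166234 of GRCm38. Smoc1 encodes a secreted calcium-binding matrix protein. The 3 transgene libraries held 99, 92 and 25 reads of it, and the knockout libraries 0, 1 and 1. In CPM these were 3.59, 2.83 and 0.860 in the transgene group and 0, 0.0407 and 0.0362 in the knockout, against 0.534, 0.542 and 0.883 in the controls. The groups did not overlap: transgene 3 lay within the range of the controls, whereas transgene 1 and transgene 2 lay above it and all knockout libraries below. The log2 fold change was -6.39 ± 0.81 (SE; edgeR adjusted p = 0.0285). With so few knockout reads the ratio of the pooled levels is the plainer measure: 216 reads against 2 gave a transgene level 99.1 times that of the knockout, with a 95% exact interval of 27.1 to 824 that covers counting error only. Reads of the other arm, miR-3067-3p, went the same way, at 4, 9 and 0 in the transgene libraries, 0 in each knockout library and 0, 1 and 0 in the controls, too few to be tested. The miRNA is rare, with a mean of 1.23 CPM over the 6 libraries, and it was singled out after its values were seen. Its call rests on the choice of fit. The adjusted p was 0.173 with the 6 libraries alone, between 0.0525 and 0.182 on leaving out any library other than transgene 3, and 0.312 without transgene 2 and knockout 3 together. Over all alternatives it ranged from 1.69e-05, in DESeq2, to 0.312, while the log2 fold change stayed between -6.82 and -5.87.

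miR-205 and miR-203, known from stratified epithelium, had among the smallest p-values of miRNAs of at least 10 CPM on the higher side. miR-205, which keeps epithelial cells from turning mesenchymal by repressing Zeb1 and Zeb2, and miR-203, which limits the growth of epidermal progenitors by repressing Trp63, were higher in every knockout library than in any transgene library. For miR-205-5p the transgene libraries were at 149.8, 214 and 210.1 CPM and the knockout libraries at 594, 344 and 446. The controls, at 263, 289 and 214, all lay below the knockout group. Its log2 fold change was 1.27 ± 0.28, with a 95% interval of 0.64 to 1.90 and an edgeR adjusted p of 0.567, so the call was not made. DESeq2 called it, with an adjusted p of 0.0198; over all alternatives the adjusted p ran from 0.0198 to 0.828 and the fold change from 1.01 to 1.46. The passenger arm miR-205-3p had the same pattern at a low level, 3.88, 3.54 and 3.16 CPM in the transgene group against 9.18, 7.98 and 7.24 in the knockout (log2 fold change 1.204). The hairpin lies at chr1:193507463-193507530 of GRCm38, in an exon of the long non-coding gene 4631405K08Rik.

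Both arms of miR-203, from a hairpin at chr12:112130880-112130955 that overlaps no annotated host gene, showed the same order of groups. miR-203-3p was at 391, 340.2 and 395 CPM in the transgene libraries and 804, 611 and 578 in the knockout libraries, with controls in between at 484, 497 and 534. Its log2 fold change was 0.82 ± 0.21. miR-203-5p was at 15.2, 10.4 and 13.8 CPM against 25.5, 30.7 and 21.97, a log2 fold change of 0.99 ± 0.25. Neither arm passed (edgeR adjusted p = 0.567 for each), and neither changed direction under any of the alternatives run.

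**Figure D2:**
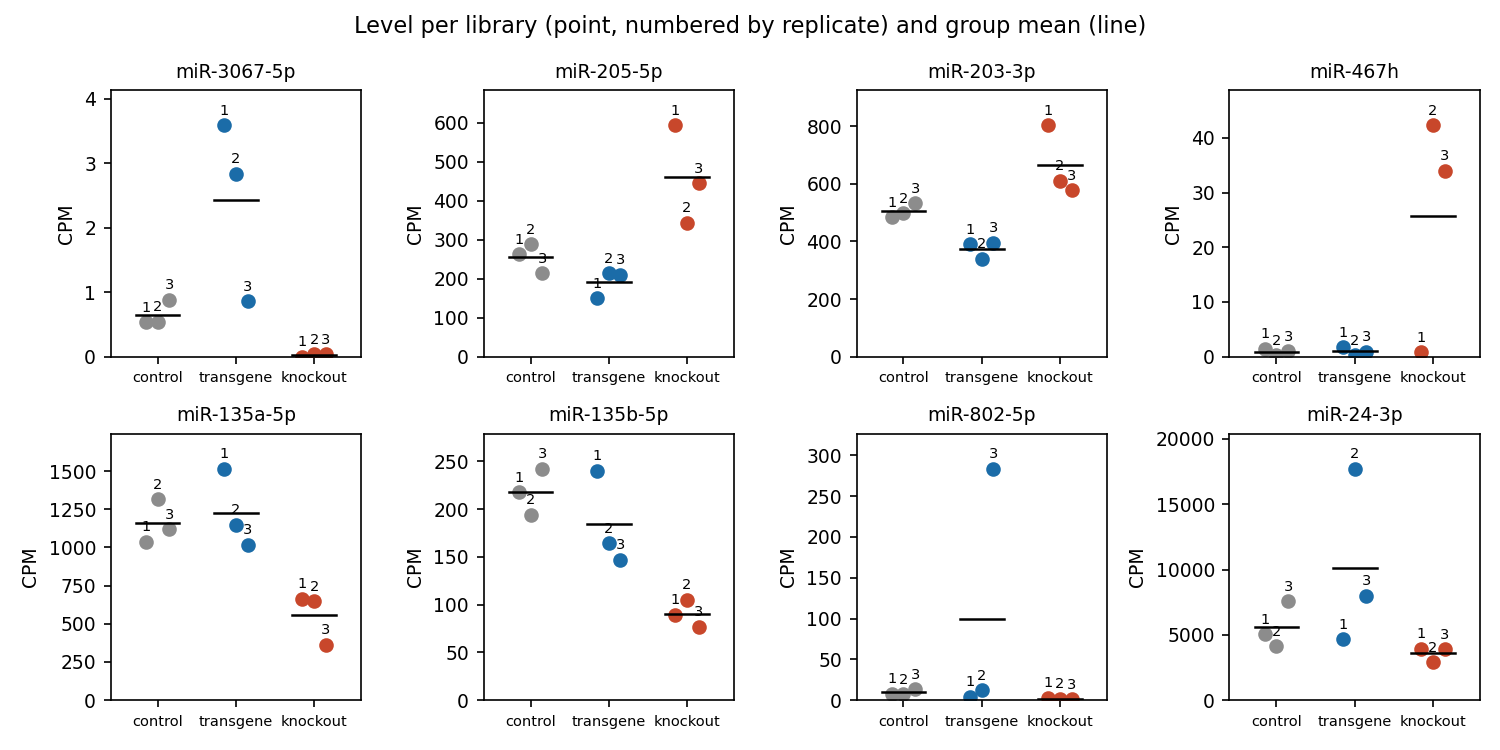
Level in CPM (vertical axis, from 0) of 8 miRNAs in each library, with the point numbered by replicate and a line at the group mean of 3. miR-205-5p and miR-203-3p are higher, and miR-135a-5p and miR-135b-5p lower, in all 3 knockout libraries than in all 3 transgene libraries, while transgene 3 lies far above the other libraries for miR-802-5p (log2 fold change -2.12 without it) and knockout 2 and knockout 3 do for miR-467h.

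On the lower side stood the miR-135 family, known for repressing Apc, a brake on Wnt signalling. miR-135a-5p was at 1516, 1148 and 1017 CPM in the transgene libraries and 663, 649 and 364 in the knockout libraries, a log2 fold change of -1.13 ± 0.28 with a 95% interval of -1.77 to -0.49. Its controls were at 1038, 1316 and 1119, inside the range of the transgene group. miR-135b-5p was at 240.3, 164 and 147 CPM against 89.5, 105 and 76.7 (-1.02 ± 0.26), with controls at 217, 194 and 242. Neither overlapped between the groups, and neither passed (edgeR adjusted p = 0.567 each). The opposite arms were also lower, miR-135a-2-3p with a log2 fold change of -1.15 and miR-135b-3p with -1.197, both at under 10 CPM. miR-135a is encoded on chr9:106154124-106154213, in an intron of D030055H07Rik and opposite an untranslated region of Glyctk, and on chr10:92072086-92072185, in an intron of Rmst.

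Other miRNAs of the lower side included rare and abundant ones. miR-346-5p, from an intron of Grid1, was at 37.6, 36.3 and 51.9 CPM in the transgene libraries and 24.6, 17.3 and 17.6 in the knockout (-1.08 ± 0.35). miR-187-3p was at 549, 601 and 561 against 366, 277 and 90.0 (-1.22 ± 0.44), with knockout 3 far below the others. Both sets of transgene values lay above every knockout value. miR-467c-5p (-0.91), miR-20a-3p (-0.70), miR-25-5p (-0.75), miR-30a-3p (-0.68) and miR-92a-3p (-0.52) were likewise lower in every knockout library than in any transgene library. miR-92a-3p, a member of the growth-promoting miR-17~92 cluster, was the most abundant of these, at 19418, 19357 and 20449 CPM in the transgene group and 15907, 14669 and 10652 in the knockout. None had an adjusted p under 0.643 in edgeR's test.

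Further miRNAs on the higher side were miR-99a-3p (37.4, 35.5 and 47.9 CPM in the transgene group and 78.5, 72.3 and 61.5 in the knockout, a log2 fold change of 0.81 ± 0.24), and miR-100-5p (5865, 3662 and 4993 against 6020.0, 7856 and 7916, a log2 fold change of 0.59 ± 0.21). miR-100-5p has the seed of the family that is known for repressing Mtor. miR-99a-3p, from the opposite arm of the miR-99a hairpin, has a different seed (AAGCUCG). miR-199b-5p, a miRNA of mesenchymal cells, was at 129, 144 and 137 CPM against 233, 171 and 209 (0.58 ± 0.21). miR-34c-5p, a p53 target that is also abundant in multiciliated cells, was at 23.2, 29.8 and 14.7 against 30.2, 44.7 and 49.9 (0.88 ± 0.33). The groups did not overlap for any of the 4, but all 4 were picked by their small p-values in this contrast. None passed, with edgeR adjusted p-values of 0.602 to 0.652.

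In several large differences few libraries stood far from the rest. miR-802, a miRNA of liver, pancreas and kidney epithelium, had both arms far lower in the knockout, yet transgene 3 alone was high: miR-802-5p was at 4.38, 11.9 and 284 CPM in the transgene libraries, 2.84, 1.91 and 0.869 in the knockout and 7.92, 7.04 and 13.3 in the controls. The log2 fold change of -5.73 ± 1.51 moved to -2.12 without transgene 3, and the knockout libraries still lay below both remaining ones. miR-802-3p did the same, at 1.09, 3.51 and 87.7 CPM against 0.912, 0.896 and 0.398. miR-24-3p, of the miR-23/27/24 clusters, was at 4677, 17717 and 8012 CPM in the transgene group and 3945, 2897 and 3909.6 in the knockout. The groups did not overlap, but transgene 2 was the highest library by far, and without that library the fold change went from -1.50 ± 0.46 to -0.85. miR-467h was at 1.78, 0.216 and 0.929 CPM in the transgene group and 0.844, 42.3 and 34.0 in the knockout. Thus knockout 1 lay inside the transgene range and the controls, at 1.45, 0.292 and 1.03, were low too. Its log2 fold change was 4.72 ± 1.33 (edgeR adjusted p = 0.567); DESeq2 called it with an adjusted p of 0.00395, and over all alternatives that p ran from 0.00395 to 0.828.

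Transgene 1 held more miRNA of gonad and early embryo than the other 5 libraries of the comparison, and control 3 also held more than the other controls. miR-202-5p, abundant in testis and ovary, was at 1381, 83.1 and 0.998 CPM in the transgene group, 1.35, 61.2 and 85.9 in the knockout and 23.2, 2.79 and 565 in the controls. Hairpins of an X-linked cluster that is expressed in testis lie between chrX:66799223 and 66839125. They gave 4 of the 34 miRNAs lower at an unadjusted p under 0.05, where 3.56% of all miRNAs were lower. Transgene 1 alone was high in each of the 4, and the tested members of the cluster were not counted. Other miR-465 names did not reach that p: miR-465c-3p was at -3.02, miR-465b-5p at -3.32 and miR-465b-3p, the other way, at 1.32. miR-871-5p was at 39.4, 0.400 and 0.138 CPM in the transgene group and 0.236, 0.366 and 0.145 in the knockout. For miR-465a-3p the values were 20.4, 0 and 0.378 against 0, 0.0407 and 0.362. Without transgene 1 the log2 fold change of miR-871-5p moved from -5.72 to -0.09, that of miR-463-5p from -5.39 to -0.26, that of miR-465a-3p from -5.64 to -0.44 and that of miR-465c-5p from -4.90 to -0.98. The miR-290 and miR-302 clusters, of pluripotent and germ cells, summed to 213 CPM in transgene 1 and to between 11.4 and 72.2 in the other 5. Their 15 tested members had a median log2 fold change of -1.08, and of 0.92 without transgene 1. These miRNAs were singled out after their values were seen, and the part of adjoining tissue in them was not tested.

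Counted over the 467 miRNAs of at least 10 CPM, single libraries that stood at least 4-fold from each of the other 5 were few. Knockout 3 was so placed above the rest for 6 miRNAs, among them muscle miR-206-3p and miR-133b-3p and neuroendocrine miR-7b-5p. miR-7b-5p was at 629, 595 and 105 CPM in the transgene group and 13.8, 552 and 2940.3 in the knockout, and so both extremes of the 6 libraries were knockout libraries. Transgene 1 was below the rest for 4 miRNAs, including miR-15b-5p (277, 1862 and 1679 CPM in the transgene group) and miR-194-5p (40.6, 375 and 350.5). Another of the 4, let-7a-1-3p, shares its mature sequence with let-7c-2-3p. Their joint level in transgene 1 was 259 CPM, within the range of the other 5 libraries. Transgene 2 held 1.63 CPM of miR-378d, against 105 or more in the other 5. 

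None of the most abundant miRNAs passed the test. miR-451a, made in red cell precursors, was at 78766, 58114 and 26313 CPM in the transgene group and 69494, 71960.2 and 109699 in the knockout (0.62 ± 0.44). miR-10a-5p, encoded at chr11:96317165-96317274 among the Hoxb genes, was at 83589.9, 46858 and 56818 against 49969, 57713 and 25505 (-0.49 ± 0.31). The groups overlapped for both. miR-26a-5p (-0.13 ± 0.17), endothelial miR-126a-3p (0.06 ± 0.18) and miR-99b-5p (-0.05 ± 0.24) also overlapped, with 95% intervals of -0.51 to 0.26, -0.36 to 0.48 and -0.60 to 0.49. For these 5 the adjusted p was 0.697 or more in edgeR's test. None of the 99 miRNAs of at least 1000 CPM passed, and their median absolute log2 fold change was 0.32.

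Summing reads over names with the same seed gave 675 seed families, which share their predicted targets. Of these 1 was called by edgeR's test (0.148%), GUUCUCA, whose only member is miR-3067-5p (adjusted p = 0.0140). The largest family in reads, GAGGUAG of let-7 and miR-98, joins 10 names and had a log2 fold change of -0.37 ± 0.19. Its summed level was 232834, 152153 and 156049.9 CPM in the transgene libraries and 127547, 166329 and 125172 in the knockout, so the groups overlapped. AUUGCAC, shared by 6 names including miR-92a-3p, miR-25-3p and miR-32-5p, was lower in every knockout library (-0.50 ± 0.18, adjusted p = 0.566). ACCCGUA, the seed of miR-99a-5p, miR-99b-5p and miR-100-5p, was at 0.15 ± 0.17, and ACCCUGU, the seed of miR-10a-5p and miR-10b-5p, at -0.40 ± 0.29. The single members of the first of these differed among themselves, at 0.33 for miR-99a-5p, -0.05 for miR-99b-5p and 0.59 for miR-100-5p, though none of the 3 passed.

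Kidney epithelium came next, by lists of miRNAs grouped by family, cluster or cell type. No member of any list passed the adjusted test, so each list is given by its counts beside those of all 955 miRNAs, of which 507 were higher and 448 lower. Their median of 0.05 ranged from -0.04 to 0.08 on leaving out 1 library. A list's values without a library are given where they change its direction or move its median by over 1.5 times. The tubule list, miR-192, miR-194, miR-204, miR-211 and miR-215, had 8 tested members, of which 6 were lower in the knockout, with a median log2 fold change of -0.40. That median was -0.85 without transgene 1 and -0.65 without knockout 3. It was -0.62 without control 1 or control 3, where the filter kept 9 members, and -0.02 over the 3 members of at least 10 CPM. In it miR-192-5p was at 1138, 2202 and 1081 CPM in the transgene libraries and 744, 783 and 749 in the knockout (-0.96 ± 0.38), without overlap. miR-204-5p was at 1807, 939 and 1240.1 against 1349, 1648 and 828 (-0.06 ± 0.31), with overlap. Summed over the list, the controls held 4239.6 to 6694 CPM, the transgene libraries 2698 to 3544 and the knockout libraries 1986 to 2822, and so the 2 DROSHA groups overlapped below the controls.

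miR-30 family members, which are plentiful in renal epithelium, were lower for 10 of 11 tested, with a median of -0.39 (-0.26 without knockout 3). miR-30d-5p (0.10 ± 0.31) was its exception, and miR-30c-5p was at 815, 1441 and 1474 CPM against 1025, 422 and 1025 (-0.59 ± 0.40), with overlap. The miR-200 family, which maintains epithelial identity, gave 3 of 9 members higher, with a median of -0.14. Its most abundant members were miR-429-3p (-0.41 ± 0.34) and miR-200a-3p (-0.12 ± 0.40), both lowest in knockout 3. The family's median turned to 0.11 without knockout 3, and was -0.32 without knockout 1, -0.37 without knockout 2 and -0.27 without transgene 2. The kidney markers of these 3 lists were present in every library.

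miR-17~92 and its paralogs, which promote proliferation in nephron progenitors and in tumors, were lower for 23 of 25 tested members, with a median of -0.40. At an unadjusted p under 0.05, 4 of them were lower and 0 higher, where 3.56% of all miRNAs were lower and 3.46% higher. The count on the lower side was 0 without transgene 2 and 1 without transgene 3. For 6 all knockout libraries lay below all transgene libraries, where 5.97% of all miRNAs did. The summed level was 44387 to 60066 CPM in the controls, 37734 to 39114 in the transgene group and 23181 to 32178 in the knockout, so the summed levels did not overlap and knockout 3 was the lowest. miR-93-5p was at 7337, 7218 and 7198 CPM against 6287, 7087 and 4419 (-0.29 ± 0.22). Without knockout 3 the median was -0.16, with 20 of 26 lower. The let-7 family, which favours differentiation, was lower for 16 of 23, with a median of -0.30. Here let-7a-5p was at 47976, 27952 and 28729 CPM against 24926, 31448 and 21862 (-0.42 ± 0.24) and let-7i-5p at 31122, 26297 and 29703 against 26908, 30236 and 20763 (-0.16 ± 0.16), overlapping in both cases. Transgene 1 was the highest library for let-7a-5p, and the median of the family was -0.08 without it and -0.19 without transgene 3.

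The miR-29 family, known for repressing collagens, was higher for 7 of 7, with a median of 0.28. Its median was -0.06 without knockout 3, 0.02 without transgene 3, 0.17 without transgene 2, 0.44 without knockout 2 and 0.53 without transgene 1. The X-linked miR-322 cluster was higher for 11 of 13 (median 0.22, and 0.12 without knockout 3 or transgene 2 and 0.34 without knockout 2). The injury list of miR-21a, miR-146a and miR-146b among others was higher for 6 of 8 (median 0.21, 0.11 without transgene 2 and 0.35 without transgene 1). The miR-15, miR-16, miR-195 and miR-497 list was higher for 7 of 11 (median 0.16), but for 5 of 12 without transgene 1 (median -0.09). Its median was -0.02 without knockout 1, 0.05 without knockout 3, 0.07 without transgene 3 and -0.12 over its 7 members of at least 10 CPM. For the miR-183 cluster the median was -0.15 with 2 of 6 higher, but 4 of 6 were higher without transgene 1 (0.10) or without knockout 3 (0.11). It was -0.40 without knockout 1 or transgene 2 and -0.29 without knockout 2. Medians near 0, of -0.02 for the miR-181 family and 0.02 for the miRNAs of Igf2 and H19, ranged on leaving out 1 library from -0.14 to 0.04 and from -0.07 to 0.09. In these lists 1 member, of the injury list, was higher at an unadjusted p under 0.05, where 3.46% of all miRNAs were. None was lower at that p, where 3.56% of all miRNAs were. Without transgene 2 none of the injury list had such a p (0 of 8).

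The miRNAs of the Hox clusters, miR-10, miR-196 and miR-615, were lower for 10 of 11, with a median of -0.26. This was -0.14 without knockout 3, -0.15 without transgene 1 and -0.53 without knockout 1; miR-10b-5p was at -0.05 ± 0.26. For miR-23/27/24, 9 of 11 were lower (median -0.38, and -0.24 without transgene 3), with miR-27a-3p, at 0.30 ± 0.18, on the other side. The miR-99/100 and miR-125 list was higher for 8 of 11 members (median 0.33). Without knockout 3 it was higher for 11 of 11, with a lower median of 0.20, and without transgene 2 for 7 of 11, with a median of 0.17.

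miR-34, a target of p53, and miR-449, which acts with it in multiciliated cells, were higher in the knockout for 7 of 7 tested members, with a median of 0.66; 3 had an unadjusted p under 0.05, where 3.46% of all miRNAs were higher at that p, and for 2 all knockout libraries lay above all transgene libraries, as for 4.4% of all. The most abundant, miR-34a-5p, was at 2014, 1428 and 2147 CPM against 2376, 2232 and 1932 (0.23 ± 0.22), overlapping. miR-34b-3p was at 126, 65.8 and 46.3 against 108, 168 and 167 (0.90 ± 0.38), with transgene 1 above knockout 1. The controls were at 108, 82.9 and 108. Without knockout 3 the median was 0.44 and 6 of 7 were higher. Without transgene 3 it was 0.32. In either case 0 members had an unadjusted p under 0.05.

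**Figure D3:**
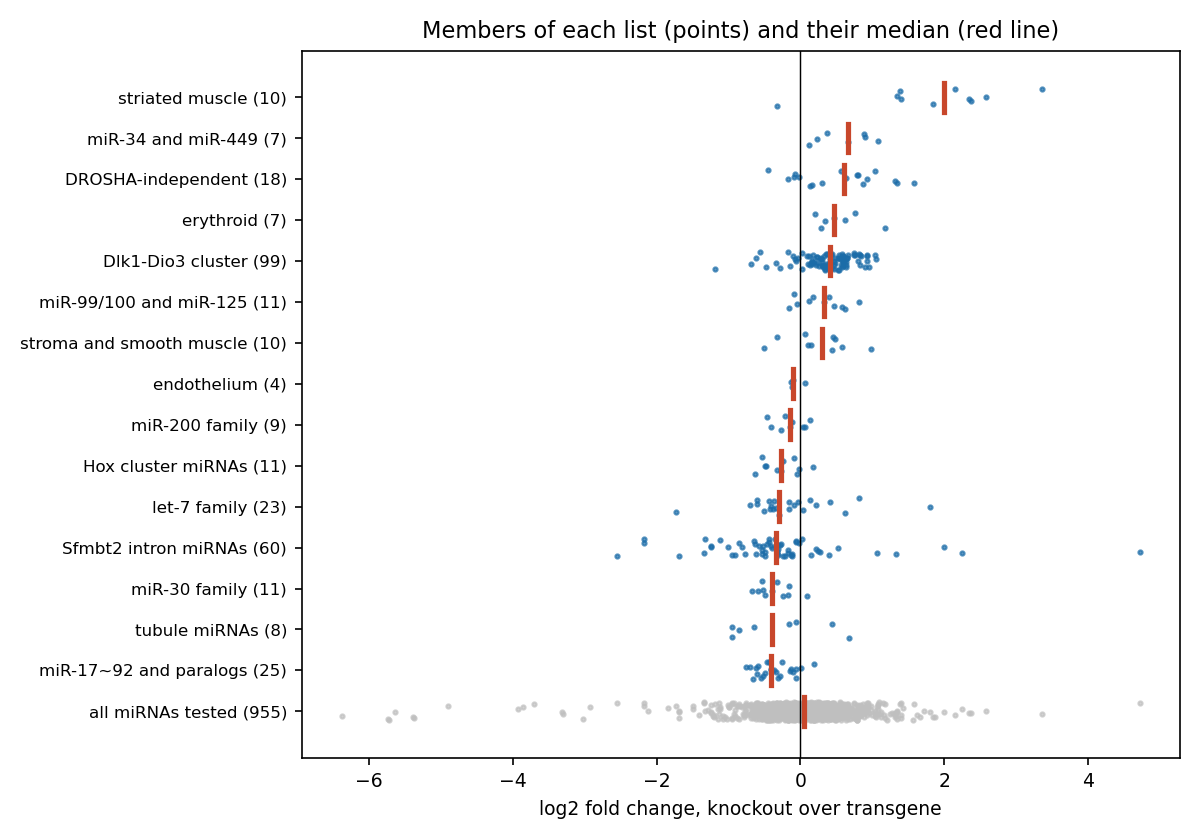
Log2 fold change, knockout over transgene (horizontal axis), of every tested member of 15 lists and of all 955 miRNAs (points, jittered vertically), with the median as a red line and the number of members in brackets. Of the lists drawn, striated muscle has the highest median, 2.001, and miR-17~92 the lowest, -0.40, against 0.05 for all miRNAs.

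The imprinted Dlk1-Dio3 cluster on chromosome 12, whose maternally expressed miRNAs are abundant in embryonic tissue, was higher for 86 of 99 members, with a median of 0.42. This rested on knockout 3. The cluster summed to 41073, 57545 and 109857 CPM in the knockout libraries and to 51301, 61819.6 and 43938 in the transgene libraries. Only knockout 3 lay outside the transgene range on the high side. Without it, 37 of 99 were higher and the median was -0.08; without transgene 2 it was 0.61, without transgene 3 it was 0.22, and without both knockout 3 and transgene 2 it was 0.14. miR-127-3p, read opposite the imprinted gene Rtl1, was at 9780.1, 12143 and 10706 CPM against 8993, 11248 and 20394 (0.32 ± 0.29). miR-411-5p (0.37 ± 0.31), miR-434-3p (1.05 ± 0.37) and miR-134-3p (0.63 ± 0.26) were each highest in knockout 3. Of these, miR-434-3p, at 1835, 1621 and 1484 CPM against 1998, 2519 and 5717, and miR-134-3p did not overlap between the groups, and neither passed (edgeR adjusted p = 0.643 and 0.652).

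Knockout 3 was also the library with most miRNA from striated muscle. The list of miR-1, miR-133, miR-206, miR-208 and miR-499 was higher for 9 of 10 tested members, with a median of 2.001. It summed to 224 to 1266 CPM in the controls, 479 to 1660.2 in the transgene group and 464 to 10599 in the knockout, where the values were 2093, 464 and 10599. miR-206-3p was at 987, 417 and 232 CPM against 1242, 186 and 6895 (2.35 ± 1.30), and miR-499-5p at 313, 217 and 95.8 against 230.4, 179.6 and 1234 (1.39 ± 0.79). miR-133a-3p (2.59 ± 1.01) and miR-133b-3p (3.37 ± 1.33), among the 12 smallest p-values of the higher side, had the same order of libraries, and knockout 2 lay below every transgene library for both. Without knockout 3 the list's median was -0.07. Muscle miRNAs were found in all 9 libraries, and the part of adjoining muscle in the comparison was not tested.

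Erythroid miRNAs (miR-451a, miR-144 and miR-486) were higher for 7 of 7 members, with a median of 0.47, and summed to 27435 to 80517 CPM in the transgene group and 71949 to 113788 in the knockout, with overlap. miR-144-3p was at 926, 1349.9 and 546 CPM against 985, 537 and 1933 (0.29 ± 0.57). The median was 0.19 without knockout 3, 0.22 without transgene 3 and 0.85 without transgene 2. Leukocyte miRNAs were higher for 6 of 9 (median 0.25), but for 4 of 9 without transgene 3 (median -0.01). Their median was 0.07 without knockout 3, 0.13 without transgene 1, 0.14 without knockout 1, 0.44 without knockout 2 and 0.64 without transgene 2. Both miR-142a-3p (0.01 ± 0.63) and miR-223-3p (0.25 ± 0.41) peaked in knockout 3 and transgene 2. The endothelial list was lower for 3 of 4, with a median of -0.11, but higher for 3 of 4 without transgene 3 (median 0.05). It was 0.04 without knockout 2 and -0.20 without transgene 2, and miR-126a-5p was at -0.10 ± 0.25. Stroma and smooth muscle (miR-143, miR-145, miR-199 and miR-214) were higher for 8 of 10, with a median of 0.30 (0.48 without transgene 3); miR-143-3p was at 29139, 19859 and 28891 CPM against 26086, 28024 and 32312 (0.15 ± 0.19).

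Neural miRNAs were higher for 5 of 8 (median 0.61), but for 1 of 8 without knockout 3 (median -0.31). Their median was 0.16 without transgene 3, 0.99 without transgene 2, 1.07 without knockout 1 and 1.16 without knockout 2; miR-9-5p was at -0.58 ± 0.39 and miR-128-3p at 0.57 ± 0.28. miRNAs of pancreas and liver were lower for 6 of 7, with a median of -0.89, but higher for 5 of 8 without transgene 2 (median 0.55), and the median was -0.48 without knockout 1 and -1.91 without knockout 3. Among them, liver miR-122-5p was at 2224, 19085 and 699.8 CPM in the transgene group and 368, 1970.0 and 6323 in the knockout, highest in transgene 2. Islet miR-375-3p was at 2697, 2502 and 9143 against 737, 2279 and 4856, highest in transgene 3. Both markers were also in the controls, miR-122-5p at 785, 991 and 11855 and miR-375-3p at 388, 616 and 329. Early-embryo miR-292a-3p, at 112, 6.07 and 2.20 CPM against 1.82, 13.6 and 18.03, and miR-293-3p, at 48.9, 4.804 and 1.75 against 1.18, 9.32 and 15.8, were highest in transgene 1.

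**Figure D4:**
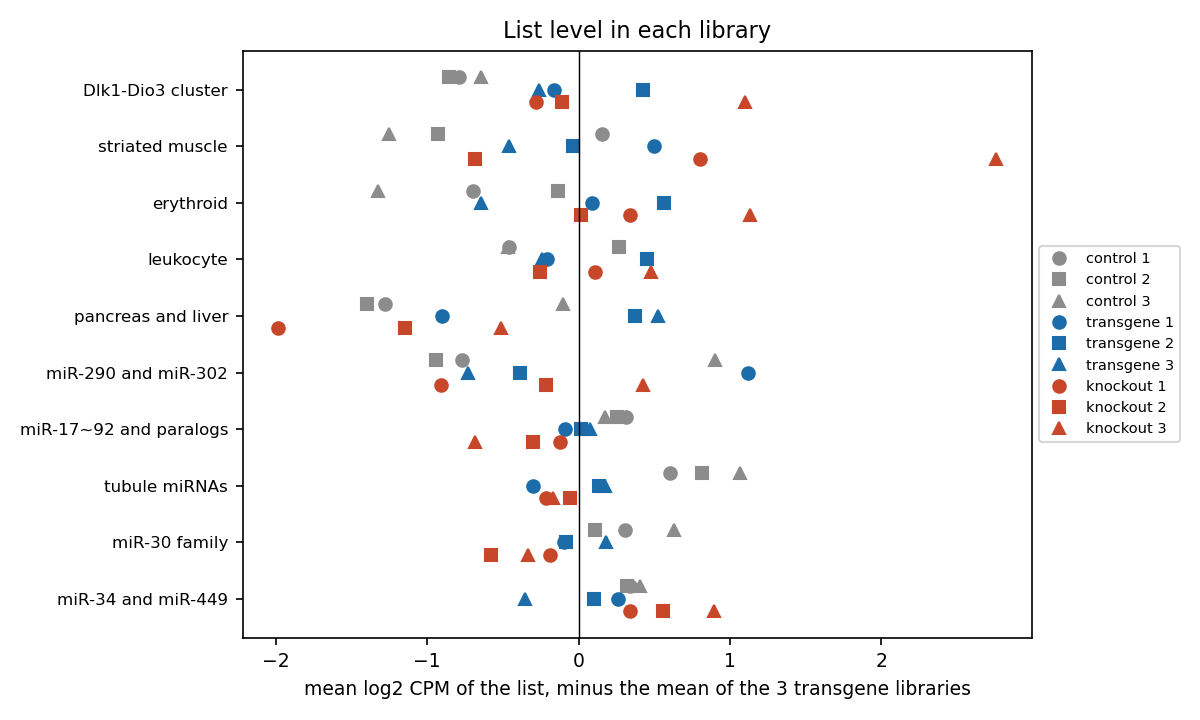
Mean log2 CPM of the tested members of 10 lists in each of the 9 libraries, minus the mean of the 3 transgene libraries (horizontal axis); colour gives the group and the marker shape the replicate. Knockout 3 is the rightmost library for striated muscle, the Dlk1-Dio3 cluster and erythroid miRNAs, and transgene 1 for miR-290 and miR-302, while the tubule miRNAs of the 2 DROSHA groups overlap below the controls.

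Precursors that do not need DROSHA give a point of reference. Mirtrons are released by splicing, and miR-320 and miR-484 come from short capped transcripts. The list of such miRNAs had 27 names with a read, 18 of them tested, and 13 of 18 were higher in the knockout, with a median of 0.60 that was 0.11 without knockout 3 and 0.17 over the 9 members of at least 10 CPM. At an unadjusted p under 0.05, 1 was higher, where 3.46% of all miRNAs were. miR-484 was at 1981, 2304 and 2804 CPM in the transgene libraries and 4372, 2571 and 1826 in the knockout (0.31 ± 0.31), highest in knockout 1 and, in knockout 3, below every transgene library. miR-320-3p was at 575, 650.2 and 862 against 1047, 433 and 810.3 (0.13 ± 0.33). The range of names from miR-6896 to miR-7094, in which many hairpins derive from splicing, was higher for 71 of 104, with a median of 0.19. Without knockout 1 it was higher for 60 of 110, with a median of 0.05. The median was 0.11 without transgene 2 and 0.29 without knockout 3. Of its 375 names, 104 were tested. Most of these are rare: together they held 104.4 to 157.3 CPM in the 6 libraries, and only 1 had a mean of at least 10 CPM. miR-6958-3p (0.33 ± 0.30) and miR-6944-3p (0.90 ± 0.31), the most abundant, came from Dennd6b and Dbn1, and miR-6944-3p was at 6.34, 5.82 and 8.15 CPM against 15.9, 7.73 and 14.2.

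The rodent list of miR-466, miR-467, miR-669 and miR-297, a large family with many copies in an intron of Sfmbt2, was lower for 48 of 60 tested members, with a median of -0.34. For 13 of the 60 all knockout libraries lay below all transgene libraries, against 5.97% of all miRNAs, and for 2 above, against 4.4%. At an unadjusted p under 0.05, 2 of the 60 were lower and 2 higher, where 3.56% of all miRNAs were lower and 3.46% higher. The median was -0.40 without knockout 3 and -0.41 without transgene 2. Its most abundant members were miR-467a-5p, at 932, 917 and 953 CPM against 784, 813 and 715 (-0.28 ± 0.22), and miR-669b-5p, at 420.0, 349.9 and 327 against 476, 533 and 320.0 (0.28 ± 0.27). miR-467c-5p was at 273, 194 and 189 CPM against 140.1, 127 and 81.4 (-0.91 ± 0.30). The copies are near-identical, so reads can pass from one name to another, and miR-467h, with the highest fold change of the list, lies elsewhere, at chr9:115381819-115381939.

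How reads were given to names matters for miRNAs with the same sequence. How tied reads were assigned is not stated in the sources used here, and the split between such names differed from library to library. miR-199a-3p and miR-199b-3p, printed above, cannot be told apart by their mature reads. Yet miR-199a-3p took 83.7%, 84.8% and 16.1% of their joint reads in the transgene libraries and 95.5%, 16.6% and 17.3% in the knockout libraries. The joint level was steadier, at 32427, 21494 and 25664 CPM against 28776, 35335 and 34526. Tested by name, miR-199a-3p was at -0.33 ± 0.78 and miR-199b-3p at 0.98 ± 0.98; summed, the pair was at 0.30 ± 0.17, with an edgeR adjusted p of 0.658. let-7a-1-3p and let-7c-2-3p, again 1 sequence, split as unevenly but in other libraries: let-7a-1-3p took 1.05%, 88.6% and 9.69% of the joint reads in the transgene group and 98.2%, 89.5% and 13.8% in the knockout. Their sum was at 0.09 ± 0.36 on the log2 scale. The value of a single name that shares its sequence is uncertain for this reason. Only names with a matched sequence could be summed in this way. With those summed, 1 miRNA of 951 was called, again miR-3067-5p.

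**Figure D5:**
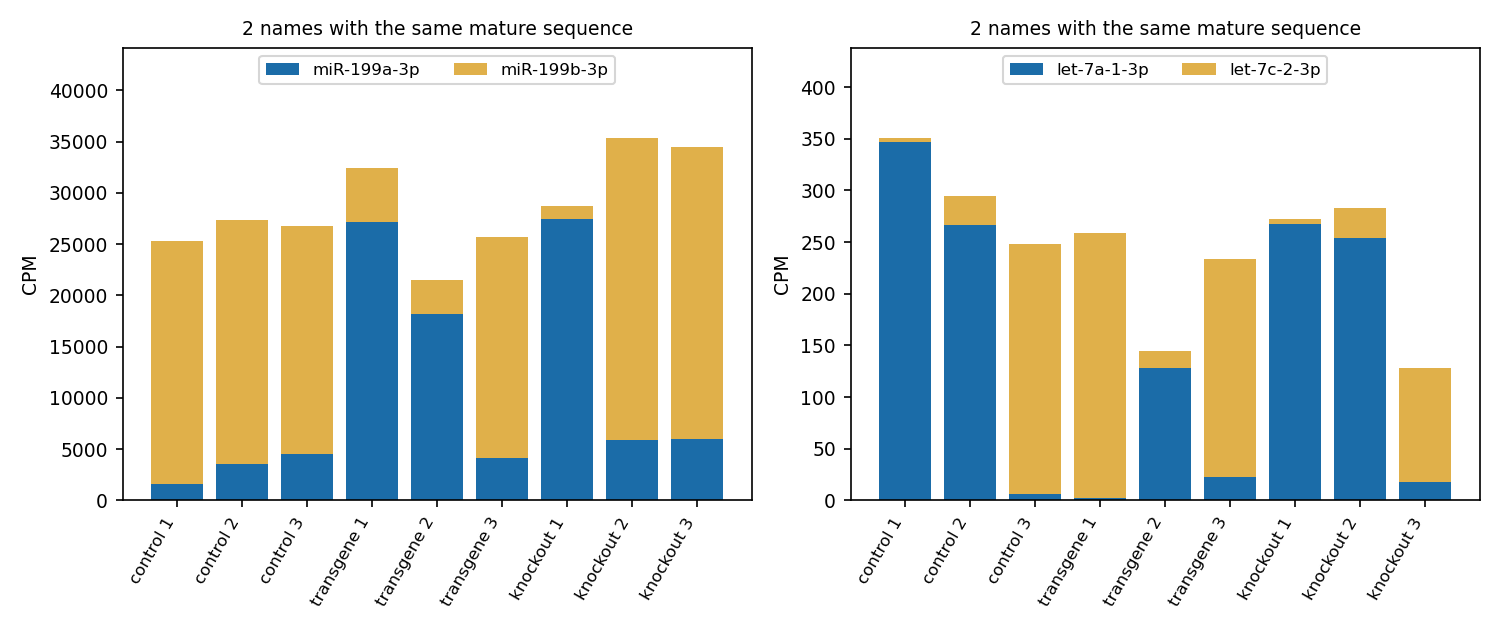
Level in CPM (vertical axis, from 0) in each of the 9 libraries of miR-199a-3p and miR-199b-3p (left) and of let-7a-1-3p and let-7c-2-3p (right), stacked by the name the reads were given. On the left the total bar, 21494 to 35335, is steadier than its split, and in both panels the split changes from library to library within each group.

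The E1147K domain cuts the 5p side of the hairpin, so the balance of the arms was compared between the genotypes. Over 306 hairpins with both arms tested, the median log2 ratio of 5p to 3p reads was 0.755, 0.484 and 0.510 in the transgene libraries and 0.531, 0.672 and 0.415 in the knockout libraries. In the controls it was 0.639, 0.691 and 0.621. Knockout minus transgene came to -0.044 (exact two-sided permutation p = 0.7, n = 3 per group), where the smallest p that 3 against 3 libraries can give is 0.1. With a Benjamini-Hochberg adjustment over the 2 library-wide measures tested here the p stayed at 0.7. The difference changed sign without transgene 1 (0.042) or without knockout 3 (0.018). Over hairpins with both arms at 10 CPM or more it was -0.085. The arms of 1 hairpin had the same sign of fold change in 201 of 306 hairpins, and in 89 of the 128 with both arms at 10 CPM or more. Arms of 1 precursor are not independent measurements.

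Reads in the hairpin class, which would hold precursor fragments outside the mature arms, were rare, at 490, 423 and 297 reads in the transgene libraries and 335, 343 and 205 in the knockout libraries. As a share of miRNA reads this was 0.00141% ± 0.00024 in the transgene group and 0.00114% ± 0.000337 in the knockout (SD, n = 3 each), against 0.00121% ± 0.000243 in the controls. Knockout minus transgene was -0.000269 percentage points (exact two-sided permutation p = 0.4, adjusted to 0.7), and the groups overlapped. Primary transcripts and whole precursors were not measured.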

How the data were processed

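Small RNA was measured in 9 libraries of whole embryonic kidney, 3 per group, of which 6 are compared. Per the labels' protocols, RNA was extracted with Trizol from frozen kidneys and libraries followed the BGI protocol. CASAVA 1.8, Bowtie2 and the mm10 build appear in the submitters' processing notes without their roles. The deposited counts are whole reads per small RNA name in each library. The deposited TPM column was not used. Rows of known mouse miRNAs were kept, and mature and hairpin counts of 1 name were added. Counts were scaled by TMM, filtered with filterByExpr and fitted in edgeR 4.0.16 (R 4.3.3) over all 9 libraries with group as a factor. Knockout minus transgene was tested by the quasi-likelihood F test with Benjamini-Hochberg adjustment at 0.05. Errors of log2 fold changes are standard errors from that fit. DESeq2 1.42.0 was an alternative. Arm and hairpin measures used exact permutation tests over libraries, with a pseudocount of 1.

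Named miRNAs are the 12 of smallest p in each direction among those of at least 10 CPM (since none of that level passed), the 5 most abundant and the 2 most abundant of each list described by examples. Other names, such as opposite arms and single-library cases, were chosen after their values were seen, as was the count of non-overlapping groups. Members and lists were chosen with earlier results of these data known. Hairpin positions and sequences are from RefSeq (GRCm38.p6), host genes from GENCODE vM21.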

Additional observations from a re-analysis of the deposited data

How the results depend on the processing

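In edgeR's test the miRNA call count was 1 under total-count, all-reads and RLE scaling, without a filter, with mature rows only and with identical sequences summed, and each time it was miR-3067-5p. It was 0 with the 6 libraries alone (42 had an unadjusted p under 0.05), 0 among miRNAs of at least 10 CPM (35 at an unadjusted p under 0.05) and 0 without transgene 2 and knockout 3, an alternative chosen after seeing the data (61 at an unadjusted p under 0.05). DESeq2 called 3. Without a filter 101 had an unadjusted p under 0.05. Leaving out 1 library gave 0 to 1 calls, 1 only without transgene 3, with 57 to 93 at an unadjusted p under 0.05. Seed family calls were 0 with the 6 libraries alone and 0 to 2 on leaving out 1 library: 0 without transgene 2, knockout 2 or knockout 3, and 2 without knockout 1. The cause of these changes was not tested. Whether the replicate numbers pair the libraries is not stated in the labels. Same-numbered knockout and transgene libraries deviated from their group means with correlations of -0.19, -0.25 and -0.32. No knockout library correlated best with the transgene library of its own number. Deviations from a mean of 3 libraries are tied to one another, so these values cannot decide the pairing. With a replicate block 0 miRNAs and 0 seed families were called, and 45 miRNAs had an unadjusted p under 0.05. The permutation p within blocks was 0.75 for the arm ratio of -0.044 and 0.25 for the hairpin share of -0.000269 percentage points. The smallest p that 3 blocks can give is 0.25, so this test could not have passed. The hairpin share was lower in the knockout library of every same-numbered pair. Of 79 named miRNAs, 53 kept their direction in every alternative and 26 did not, none of them past the test. With 1 library left out at a time, log2 fold changes that changed sign ranged from -0.25 to 0.069 for miR-26a-5p, -0.040 to 0.24 for miR-126a-3p, -0.21 to 0.20 for miR-99b-5p, -0.075 to 0.49 for miR-127-3p, -0.014 to 0.60 for miR-411-5p, -0.28 to 0.0039 for let-7i-5p, -0.37 to 0.27 for miR-200a-3p, -0.13 to 0.31 for miR-30d-5p and -0.28 to 0.26 for miR-204-5p. Likewise the ranges were -0.038 to 0.26 for miR-143-3p, -0.0050 to 1.83 for miR-499-5p, -0.24 to 0.11 for miR-126a-5p, -0.29 to 0.65 for miR-144-3p, -0.73 to 0.70 for miR-142a-3p, -0.014 to 0.70 for miR-223-3p, -2.61 to 0.90 for miR-122-5p, -0.22 to 0.24 for miR-10b-5p and -2.45 to 1.46 for miR-292a-3p. Further ranges on leaving out 1 library were -1.78 to 1.45 for miR-293-3p, -0.12 to 0.58 for miR-484, -0.22 to 0.43 for miR-320-3p, -1.51 to 0.28 for miR-199a-3p, -0.031 to 0.81 for miR-194-5p, -3.94 to 0.28 for miR-202-5p, -0.60 to 1.89 for miR-7b-5p and -0.16 to 0.93 for miR-378d. Without transgene 2 and knockout 3 the values of changed sign were 0.075 for miR-99b-5p, -0.0011 for miR-411-5p, 0.079 for miR-200a-3p, -0.17 for miR-30d-5p, -0.080 for miR-143-3p, 0.044 for miR-10b-5p, 0.10 for miR-199a-3p, -0.33 for miR-7b-5p and -0.18 for miR-378d. miR-142a-3p, near 0, was at -0.033 with total counts, -0.057 with all counted reads, -0.0060 with RLE factors, -0.0060 in DESeq2 and -0.036 without a filter. miR-199a-3p was at 0.30 with identical sequences summed. Depth sets which names can be tested: 955 of the 1607 with a read passed the filter.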
